A study of Rattus norvegicus with 6 samples.

Results

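The endothelin and kallikrein-kinin systems were followed in rat kidney through 9 genes: the ligands Edn1 and Edn3, the receptors Ednra and Ednrb, the converting enzyme gene Ece1, the tissue kallikrein gene Klk1, the kininogen gene Kng1 and the kinin receptors Bdkrb1 and Bdkrb2. Members were all probes on the array whose RefSeq accession belongs to one of these symbols, which gave 10 probes of 30367 for 9 of the 15168 named genes. Ednra had 2 probes and each other gene had 1. The array held 3 kidneys from Bailing Capsule-treated rats and 3 kidneys from diabetic rats, all aged 21 weeks, and the series asks how Bailing Capsule, a fermented Cordyceps product, affects renal gene expression. The labels name neither dose, strain, sex nor the way diabetes was produced, and they do not state whether the treated animals had diabetes. The sample names say kidney and name no part of it. RNA came from kidney tissue, so a smaller number of cells of one type and less RNA per cell cannot be told apart. Beyond the sample names nothing in the labels says whether the 3 kidneys of a group came from separate animals, so p-values cover only the scatter among these 3, which may be technical.

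Both systems make short vasoactive peptides inside the kidney. Endothelins are cut from a larger precursor by endothelin-converting enzyme. The ETA receptor on smooth muscle constricts vessels, while the ETB receptor on endothelium and collecting duct signals through nitric oxide, and in the collecting duct it restrains sodium uptake. The inner medullary collecting duct is known as a rich source of endothelin-1. Tissue kallikrein, made in the connecting tubule, cuts kinins out of kininogen, and kinins act on the B2 receptor, which is present under normal conditions, and on the B1 receptor, which appears after injury. Kininogens are produced mainly by the liver and circulate in plasma, and they also inhibit cysteine proteases.

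Of the 9 genes, 6 entered the test, which required a signal well above background on every array of one group or the other. limma called 0 of these 6 at an adjusted p under 0.05, the level used for every call below. Among all 17892 features it called 0.319%, with 23 (0.129%) higher and 34 (0.19%) lower after Bailing Capsule. With slide as a block, explained below, it also called 0 of the 6, against 0.212% of features, of which 28 were higher and 10 lower. In the deposited normalized values the same split was 25 higher and 21 lower, and with normexp background correction it was 8 and 7. At an unadjusted p under 0.05 there were 2 members, Kng1 and Edn1, both lower after Bailing Capsule, where 7.55% of all features passed that level, 3% higher and 4.54% lower. Both entered the test only through the diabetic group, since 1 Bailing Capsule array was not well above background for each, so these counts over tested members carry no weight as evidence. The 6 differences had a median of 0.11 on the log2 scale, beside -0.09 for all features tested.

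Sequences are shown for the genes with the 2 lowest p-values and for the close relatives of one of them. Upstream sequence from RefSeq (build GRCr8) was held for 7 of the 9 genes. The stretch of Edn1 given here lies on the minus strand at chr17:22666778-22666917, from 230 to 91 bases before the annotated start. Its capitals mark 3 elements that are textbook features of this promoter: the GATA element, which reads TTATCT on this strand, the AP-1 element TGACTAA and the TATA box TATAAA.
Edn1: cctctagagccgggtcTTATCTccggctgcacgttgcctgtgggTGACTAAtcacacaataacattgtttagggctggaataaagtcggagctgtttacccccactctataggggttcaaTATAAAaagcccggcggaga
Read on both strands over the 250 bases before the start, TTATCT occurred in 10.3% of 33469 rat promoters, TGACTAA in 2.0% and TATAAA in 12.9%, and no 2 of these matches overlap in Edn1. A match describes the letters only.

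The kininogen genes lie together on chromosome 11, and a 90-base stretch upstream of each is closely alike. The rest of the upstream sequence of Kng1 was not compared. The RefSeq table gives Kng1l1 as an older name of Kng1. It lists Kng1 as an older name of both Kng2, the T-kininogen gene also called major acute phase protein, and Kng2l1, so the symbol has moved between these genes. The 90-base stretches below come from chr11:91340309-91340398 (minus strand) for Kng1, chr11:91418375-91418464 (plus strand) for Kng2 and chr11:91483191-91483280 (plus strand) for Kng2l1. Capitals mark matches to the C/EBP pattern TTNNGNAAT, of a factor family known for liver and acute phase genes.
Kng1: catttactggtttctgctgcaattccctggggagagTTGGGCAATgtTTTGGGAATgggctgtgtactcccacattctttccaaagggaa
Kng2: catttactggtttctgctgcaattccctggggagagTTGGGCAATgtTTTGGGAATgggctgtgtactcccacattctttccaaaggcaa
Kng2l1: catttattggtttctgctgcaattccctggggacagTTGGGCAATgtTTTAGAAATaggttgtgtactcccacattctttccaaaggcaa
Kng2 matched Kng1 at 89 of 90 bases and Kng2l1 at 83 of 90. The first match to the pattern began 214 bases before the annotated start of Kng1, 59 before that of Kng2 and 192 before that of Kng2l1, so the shared stretch lies at different distances from the start. The best match of the same stretch in any of 33465 other promoters was 47 bases. The pattern TTNNGNAAT was found on either strand in 10.9% of all promoters, and its matches in these genes overlap no other motif searched. These bases are not transcribed; probe and transcript sequences were not used here, and binding of a kininogen probe to RNA of a neighbour was not tested.

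All levels below are log2 processed signals minus the 75th percentile of the same array, so that 0 is the level of the 75th percentile probe. That percentile corresponded to a processed signal between 222.8 and 385.8. Levels of different probes are not set against each other, except that the difference of both endothelin receptors is followed across arrays. Of the kidney markers that check the tissue, all 8 genes of the proximal tubule, all 6 of podocytes and 4 of 5 of the thick limb were measurable. Arrays that share scan date and scan identifier in the file headers were taken to lie on 1 slide, and no slide label was read. By this grouping, slide 1 carried the 3 Bailing Capsule arrays with diabetic replicate 1, and slide 2 carried diabetic replicates 2 and 3. A value with slide as a block therefore rests on 1 diabetic array. Across all features, the first principal component held 42.3% of the variance and did not part the groups. The counts of called features when each array is left out are given with the processing alternatives.

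**Figure D1:**
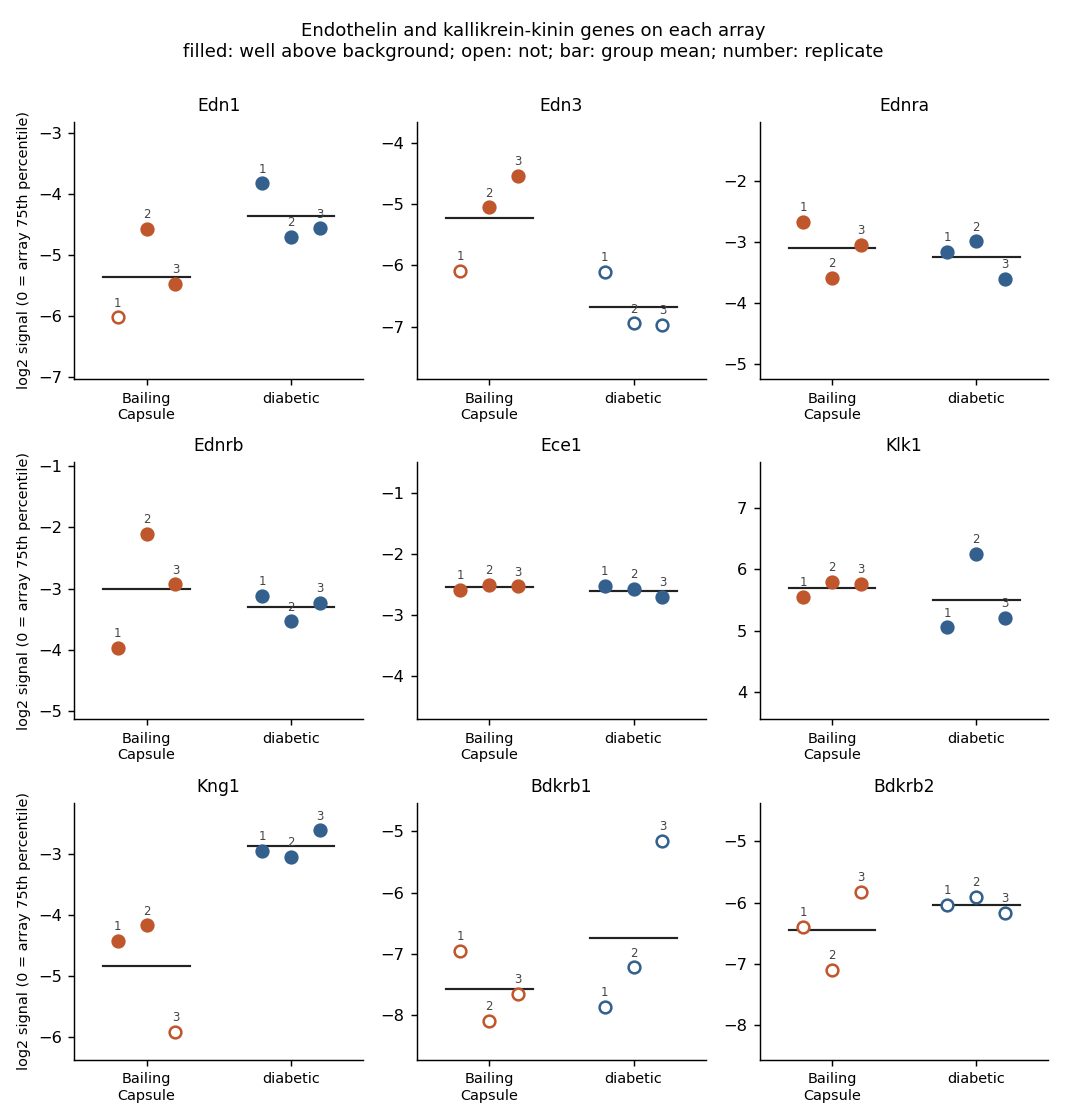
Level of each of the 9 genes on every array (log2 processed signal, 0 at the array's 75th percentile), with the 3 Bailing Capsule arrays left and the 3 diabetic arrays right; numbers are replicates, bars group means, open points arrays not well above background, and each panel spans the same number of log2 units. Kng1 is the tested gene whose groups do not overlap, and for Ednra the probe well above background is drawn.

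Among the ligands, Edn1 encodes prepro-endothelin-1. Edn1 levels were -6.02, -4.58 and -5.47 in the Bailing Capsule group, against -3.83, -4.70 and -4.57 in diabetic kidneys. Bailing Capsule replicates 1 and 3 lay below all diabetic kidneys, while replicate 2 lay within their range, so the groups overlapped. The mean was -5.36 ± 0.73 in Bailing Capsule and -4.37 ± 0.47 in diabetic kidneys (SD, n = 3 each). The difference was -0.99 (SE 0.39, 95% interval -1.85 to -0.13; limma adjusted p = 0.547) and did not pass. With slide as a block the difference was -1.53 (adjusted p = 0.574), and without Bailing Capsule replicate 1 it was -0.66 (adjusted p = 0.429). With normexp, which adds an offset and shrinks dim probes, it was -0.13 (adjusted p = 0.862).

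The Edn1 probe was printed 10 times on each array, which shows how much of its spread arises within an array. In Bailing Capsule kidneys, 0 of 10 spots were well above background on replicate 1, 9 of 9 on replicate 2 and 6 of 10 on replicate 3, after outlier spots were left out. In diabetic kidneys the counts were 10 of 10, 8 of 9 and 8 of 10. The SD among spots of an array on the log2 scale was 0.60, 0.10 and 0.34 in the Bailing Capsule group, against 0.24, 0.22 and 0.29 in diabetic kidneys. Median processed signals were 3.4, 15.5 and 5.58 in the Bailing Capsule group, against 20.0, 8.6 and 15.7 in diabetic kidneys, before scaling between arrays. The gene was thus read close to the background of the scanner, and on Bailing Capsule replicate 1 below the level called well above background.

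**Figure D2:**
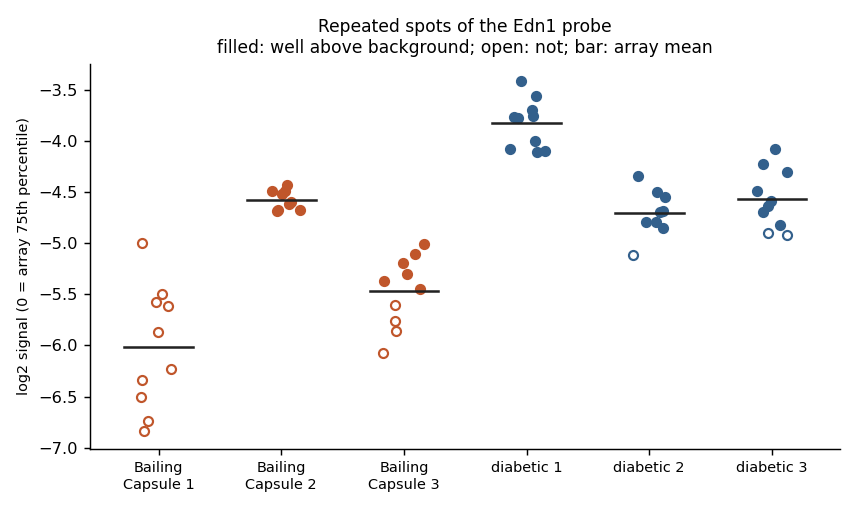
Each repeated spot of the Edn1 probe (vertical axis, log2 processed signal with 0 at the array's 75th percentile) on the 6 arrays, Bailing Capsule left and diabetic right; bars are array means and open points are spots not well above background. The spots of Bailing Capsule replicate 1 are all open, and those of replicate 2 lie close together at the level of diabetic replicates 2 and 3.

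Edn3 encodes prepro-endothelin-3, a peptide that prefers the ETB receptor. Edn3 levels were -6.09, -5.05 and -4.54 in the Bailing Capsule group, against -6.11, -6.95 and -6.97 in diabetic kidneys. Only Bailing Capsule replicates 2 and 3 were well above background, and Bailing Capsule replicate 1 lay next to diabetic replicate 1. The gene was therefore below the filter and outside the test. Set against the lowest level that counts as well above background on the diabetic arrays, the mean of the Bailing Capsule arrays was 1.12-fold higher. Only 2 of these arrays measured Edn3, and the mean includes the unmeasured replicate 1, so this fold is not a lower bound. Its measured means were -5.22 ± 0.79 in Bailing Capsule and -6.68 ± 0.49 in diabetic kidneys (SD, n = 3 each). With no filter on dim probes the difference was 1.45 (limma adjusted p = 0.608). When Bailing Capsule replicate 1 was left out and the filter was applied to the arrays left, a setting chosen after the data were seen, Edn3 entered the test with 1.88 (limma adjusted p = 0.0348). It entered only through the Bailing Capsule group, where its signal is higher, and no diabetic array measured it, so this value is no support for a difference.

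Ednra encodes the ETA receptor. Ednra levels were -2.67, -3.58 and -3.05 in the Bailing Capsule group, against -3.16, -2.99 and -3.60 in diabetic kidneys. The groups lay over each other, and the difference was 0.15 (SE 0.31, 95% interval -0.53 to 0.83; limma adjusted p = 0.977). The second Ednra probe was not well above background on any array and gave no usable comparison. An interval this wide does not show that the groups were equal.

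Ednrb encodes the ETB receptor, and its spread was mostly within the Bailing Capsule group. Ednrb levels were -3.96, -2.11 and -2.93 in the Bailing Capsule group, against -3.12, -3.54 and -3.24 in diabetic kidneys. Bailing Capsule replicate 2 was the highest of all 6 arrays and Bailing Capsule replicate 1 the lowest. The SD was 0.93 in Bailing Capsule and 0.22 in diabetic kidneys (n = 3 each), and the difference was 0.29 (SE 0.41; limma adjusted p = 0.972). It was 0.78 without Bailing Capsule replicate 1 (adjusted p = 0.321) and -0.15 without Bailing Capsule replicate 2 (adjusted p = 0.9998), so its sign rests on single arrays. With slide as a block it was 0.12.

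The balance of both receptors within an array was taken as Ednra minus Ednrb, where a rise between groups would show unequal change and nothing about either gene alone. It was 1.30, -1.47 and -0.12 in the Bailing Capsule group, against -0.04, 0.55 and -0.37 in diabetic kidneys. The group means differed by -0.15 (exact permutation test over 20 splits, two-sided p = 0.9, where 0.1 is the smallest p that 3 against 3 arrays allow).

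Ece1, which encodes endothelin-converting enzyme 1, was the steadiest of the tested genes. Ece1 levels were -2.59, -2.51 and -2.53 in the Bailing Capsule group, against -2.53, -2.58 and -2.71 in diabetic kidneys. The SD was 0.04 in Bailing Capsule and 0.09 in diabetic kidneys (n = 3 each). The difference was 0.06 (SE 0.23, 95% interval -0.45 to 0.58; limma adjusted p = 0.987), where the SE borrows spread from other features.

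Klk1, the tissue kallikrein gene, gave bright spots on every array, with processed signals of 10492, 20774 and 12848 in Bailing Capsule kidneys and 9068, 16938 and 14197 in diabetic kidneys. Klk1 levels after scaling were 5.55, 5.79 and 5.76 in the Bailing Capsule group, against 5.05, 6.25 and 5.20 in diabetic kidneys. Diabetic replicate 2 was above every Bailing Capsule kidney and the other diabetic kidneys were below them, so the groups overlapped. The difference was 0.20 (SE 0.33, 95% interval -0.54 to 0.94; limma adjusted p = 0.975). It was 0.65 with slide as a block (adjusted p = 0.9997), 0.58 without diabetic replicate 2 (adjusted p = 0.917), -0.02 without diabetic replicate 1 (adjusted p = 0.99) and 0.05 without diabetic replicate 3. Quantile normalization gave 0.51 and the deposited values 0.54 (adjusted p = 0.704).

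Other genes of the rat tissue kallikrein cluster, which resemble Klk1 closely, were read by probes of their own. The 90 bases of Klk1 just before its start were compared without gaps with each relative. The best match was kept, anywhere in the relative's promoter record and not only before its start. Klk1c8 matched 80 bases, Klk1c12 and Klk1c10 matched 79 each, Klk1c2 matched 70 and Klk1b3 matched 61. Among listed relatives without levels here, Klk1c3 matched 82 bases, Klk1c4 77 and Klk1c6 73. Promoters outside the family were not searched for this stretch. Transcripts were not compared, and cross-reaction of probes within the family was not tested. The 6 tested relatives had differences of 0.03 to 0.61 and none was called (0.319% of all features were called). With slide as a block Klk1c10 had -0.62 and the other 5 had 0.41 to 0.98. Signs also turned for some relatives when 1 array was left out. Leaving out diabetic replicate 1 gave -0.18 for Klk1c9, -0.062 for Klk1c8 and -0.078 for Klk1b3. Leaving out Bailing Capsule replicate 2 gave -0.28 for Klk1c9 and -0.043 for Klk1b3. Klk1c10 had -0.13 once Bailing Capsule replicate 1 was dropped. Dropping diabetic replicate 2 gave -0.051 for Klk1c10, and dropping replicate 3 of that group gave -0.21. Klk1c8 levels were 4.34, 4.78 and 4.79 in the Bailing Capsule group, against 3.84, 5.20 and 4.20 in diabetic kidneys, with diabetic replicate 2 again the highest array. Klk1b3 had 3.26, 3.81 and 3.59 in the Bailing Capsule group, against 3.15, 3.96 and 3.30 in diabetic kidneys, with the same array on top. Klk1c2 had a difference of 0.25 and Klk1c9 of 0.17. Klk1c12 had the largest difference of the 6, at 0.61 (limma adjusted p = 0.74).

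Kng1 showed the largest difference among the tested members. Kng1 levels were -4.43, -4.17 and -5.92 in the Bailing Capsule group, against -2.96, -3.05 and -2.62 in diabetic kidneys. All Bailing Capsule kidneys lay below all diabetic kidneys, which was the case for 7.06% of all features. Groups parted in either direction for 11.6% of features. The mean was -4.84 ± 0.94 in Bailing Capsule and -2.88 ± 0.23 in diabetic kidneys (SD, n = 3 each). The difference of -1.96 (SE 0.42, 95% interval -2.89 to -1.03) had an unadjusted p of 0.000826 and an adjusted p of 0.123 in limma, and did not pass. It was called without Bailing Capsule replicate 1, at -2.17 (limma adjusted p = 0.036), but not when the filter was also applied anew to the 5 arrays left, a setting chosen after the data were seen (adjusted p = 0.0586). With slide as a block it was -1.88 (adjusted p = 0.489), and with normexp -0.54 (adjusted p = 0.252). Bailing Capsule replicate 3, the lowest array, was not well above background, and without it the difference was -1.42 (adjusted p = 0.25). Kng1 thus entered the main test only through the diabetic group, where its signal is higher. The same held for both fits without Bailing Capsule replicate 1. The parting of the groups and the p-values of these fits are therefore no support for a difference.

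The kinin receptors could not be followed. Bdkrb1 levels ran from -8.10 to -6.96 in Bailing Capsule kidneys and from -7.87 to -5.16 in diabetic kidneys, and 0 of 6 arrays were well above background. Bdkrb2 levels ran from -7.11 to -5.83 in Bailing Capsule kidneys and from -6.17 to -5.90 in diabetic kidneys, also with 0 of 6 arrays well above background. For these 2 genes no fold is given, and a difference was not detectable at these signals.

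The rest of both pathways was taken from 2 lists of 47 symbols in all, 2 of which, Kng1l1 and Klk1c7, are older names of Kng1 and Klk1 in the RefSeq table. On the array 40 were found and 33 were tested. limma called 0 of the 33 (0.319% of all features were called). At the unadjusted level 7 passed, with 2 higher and 5 lower after Bailing Capsule (21.2%, where 7.55% of all features passed that level). Groups did not overlap for 7 genes that lay lower (21.2% of the list, against 7.06% of all features) and for 2 that lay higher (6.06%, against 4.58%). The lists were chosen with earlier results of these data known, so their shares, here and below, carry no weight as evidence. The median difference was -0.03, beside -0.09 over all features.

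**Figure D3:**
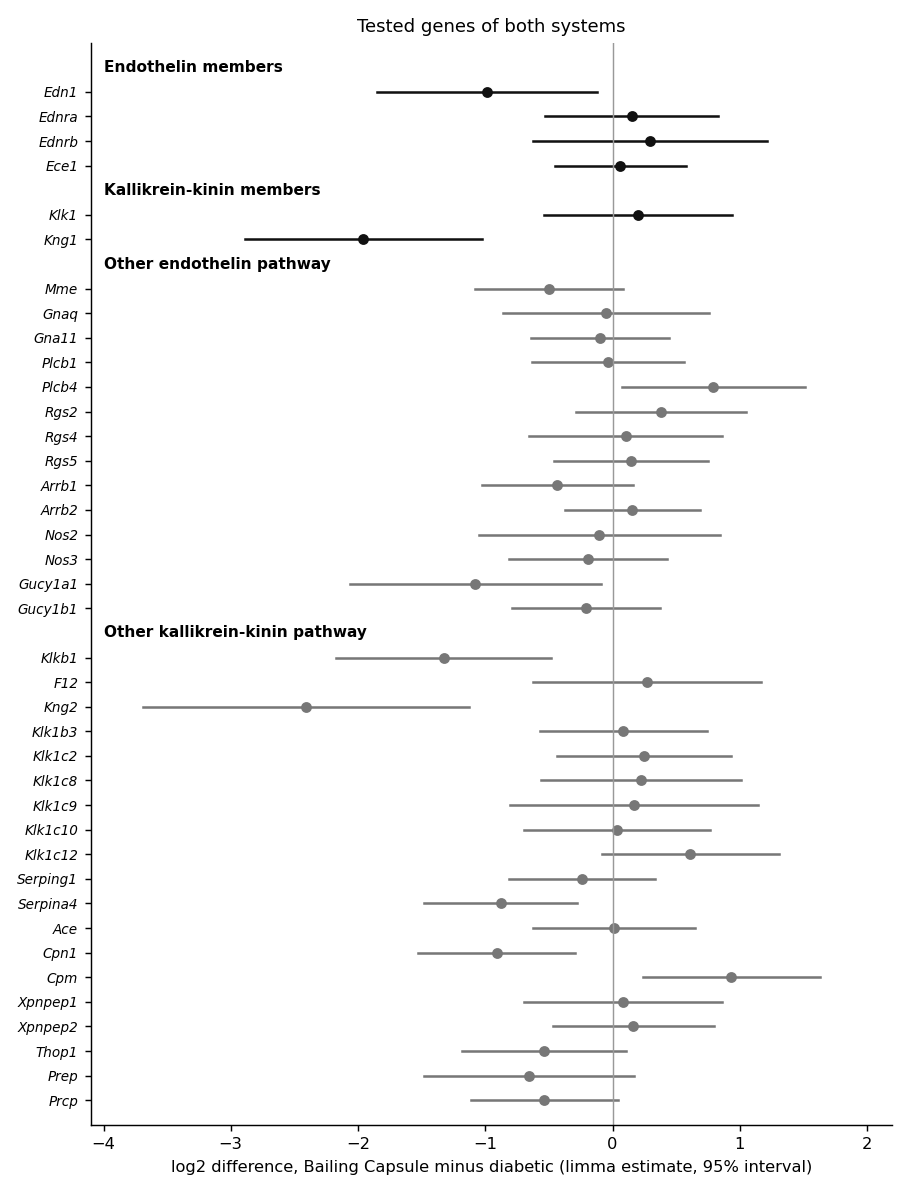
Log2 difference, Bailing Capsule minus diabetic, with its 95% interval from limma (horizontal axis), for the 6 tested members in black and the 33 tested pathway genes in grey; negative values mean lower in Bailing Capsule kidneys. The intervals of Kng1, Edn1, Kng2, Klkb1, Cpn1, Serpina4 and Gucy1a1 lie below 0 and those of Plcb4 and Cpm above 0, and none of these genes passed the adjusted test.

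The 2 lowest differences in these lists belonged to Kng2 and Klkb1. Kng2, the T-kininogen gene, had levels of -2.65, -1.25 and -4.07 in the Bailing Capsule group, against -0.70, -0.05 and 0.02 in diabetic kidneys. Its groups did not overlap, and the difference was -2.41 (SE 0.58; limma adjusted p = 0.175), a 5.32-fold lower level. Leaving out 1 array moved it between -3.11, without Bailing Capsule replicate 2 (adjusted p = 0.052), and -1.71, without Bailing Capsule replicate 3. Kng2l1 was well above background on 2 arrays of each group and was not tested. Its levels were -5.15, -5.71 and -4.43 in the Bailing Capsule group, against -2.94, -2.83 and -5.21 in diabetic kidneys, with diabetic replicate 3 among the Bailing Capsule values.

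Klkb1 encodes plasma prekallikrein. Klkb1 levels were -3.02, -2.26 and -3.27 in the Bailing Capsule group, against -1.82, -0.78 and -1.98 in diabetic kidneys. The groups did not overlap, and the difference was -1.33 (SE 0.38; limma adjusted p = 0.279). Cpn1, the catalytic subunit of the plasma kininase carboxypeptidase N, had -0.91 (adjusted p = 0.322) with groups that did not overlap, and -0.51 with slide as a block. Serpina4, which encodes the kallikrein inhibitor kallistatin in human, had -0.88 (adjusted p = 0.323), also with groups that did not overlap. F12, the contact factor that activates prekallikrein, had 0.27 with overlapping groups, 1.003 with slide as a block and -0.11 without Bailing Capsule replicate 1.

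Most tested markers of liver, where these plasma proteins are mainly made, lay lower in the same kidneys. Of 10 listed liver markers 7 were tested, 6 of them with negative differences. The median of these 7 markers was -1.13, beside -0.09 for all features tested. limma called 0 of them, where 0.319% of all features were called. Their median level relative to the diabetic mean was -0.90, -0.88 and -1.27 in the Bailing Capsule group, against -0.20, -0.04 and 0.24 in diabetic kidneys. Their summed level (linear signal over the array's 75th percentile) ran from 1.58 to 1.85 in Bailing Capsule and from 2.25 to 3.40 in diabetic kidneys. Alb, the albumin gene and a defining marker, had levels of -3.36, -3.94 and -4.88 in the Bailing Capsule group, against -2.12, -2.95 and -3.01 in diabetic kidneys. Cyp2c11, a liver cytochrome P450, was the exception at 1.93, with all Bailing Capsule kidneys above all diabetic kidneys. Ttr had -0.68 with overlapping groups. Groups parted lower for 5 of the 7 markers (71.4%, against 7.06% of all features) and higher for 1 (14.3%, against 4.58%). The part of these markers in the values of the kininogen, prekallikrein, Cpn1 and Serpina4 genes was not tested.

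**Figure D4:**
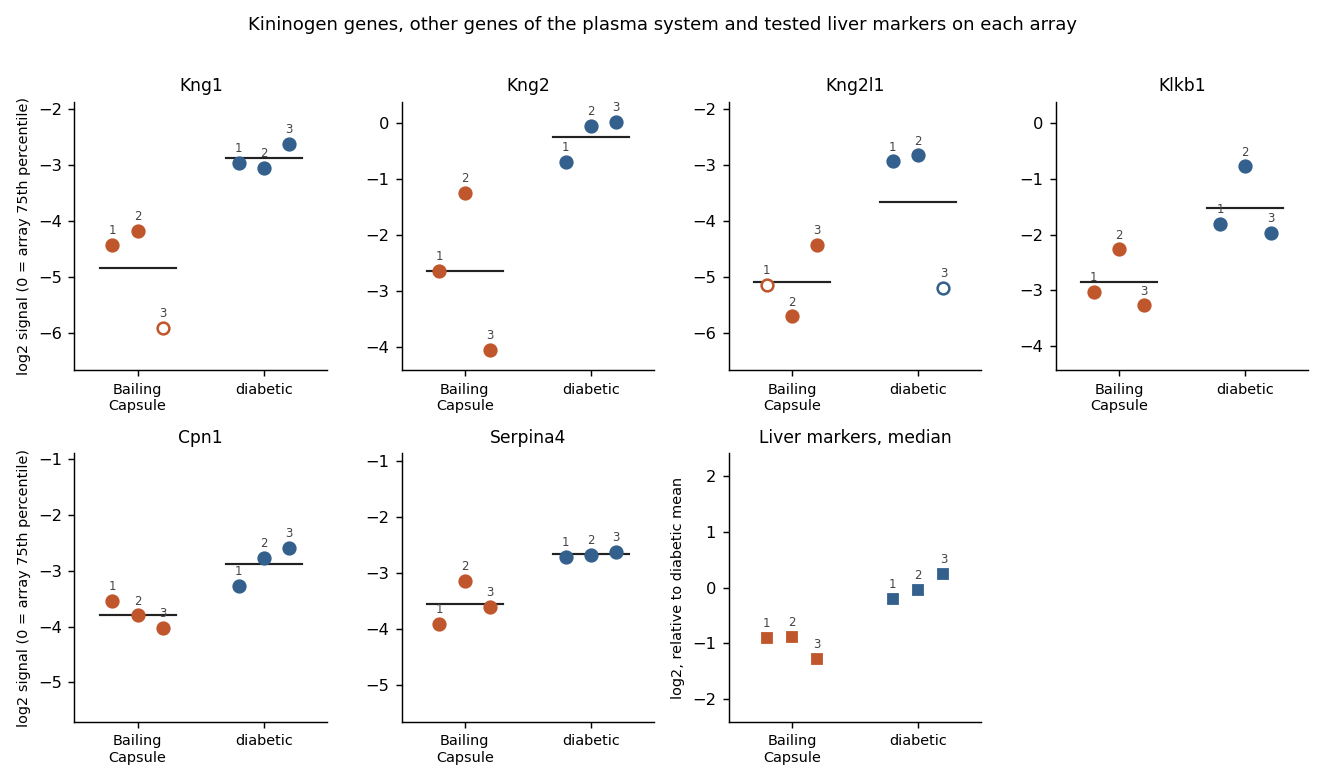
Levels of 3 kininogen genes, Klkb1, Cpn1 and Serpina4 on each array (log2 processed signal, 0 at the array's 75th percentile), and the median of 7 tested liver markers relative to the diabetic mean (squares); Bailing Capsule left, diabetic right, numbers are replicates and open points are not well above background. In every panel except Kng2l1 the Bailing Capsule kidneys lie below the diabetic kidneys.

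Among the genes whose products remove kinins or endothelins inside the kidney, none was called (0.319% of all features were called). Mme, the neprilysin gene, whose product breaks down both peptides, had levels of 3.89, 3.59 and 4.23 in the Bailing Capsule group, against 4.52, 4.44 and 4.25 in diabetic kidneys. The Mme groups did not overlap by a narrow margin, and the difference was -0.50 (limma adjusted p = 0.751). Ace, the main kininase of vessels and brush border, had 0.01 (SE 0.29; adjusted p = 0.9997). Cpm, a membrane carboxypeptidase that trims kinins, had levels of -3.50, -2.38 and -3.18 in the Bailing Capsule group, against -3.92, -3.82 and -4.12 in diabetic kidneys. The Cpm difference was 0.94 (SE 0.31; adjusted p = 0.397), with all Bailing Capsule kidneys above all diabetic kidneys, with normexp it was 0.30, and without Bailing Capsule replicate 2 it was 0.62. The aminopeptidase P genes Xpnpep1 and Xpnpep2 had 0.08 and 0.16, and the oligopeptidase genes Thop1 and Prep had -0.54 and -0.65. Prcp, whose product can activate prekallikrein, had -0.54 with groups that did not overlap, and Serping1, the C1 inhibitor gene, had -0.24.

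Among the other genes of the endothelin list, most of them downstream of the receptors, limma called 0 of 14 tested (0.319% of all features were called). An unadjusted p under 0.05 was found for 2 of them (14.3%, against 7.55% of all features). Plcb4, a phospholipase C gene, had levels of 0.29, 0.38 and 0.45 in the Bailing Capsule group, against -1.09, -0.32 and 0.15 in diabetic kidneys. The Plcb4 groups did not overlap, and the difference was 0.79 (SE 0.32; limma adjusted p = 0.581). It was 1.46 with slide as a block (adjusted p = 0.238), a fit in which diabetic replicate 1 is the only diabetic array, and 0.46 without that array (adjusted p = 0.639). Gucy1a1, a subunit of the nitric oxide receptor guanylate cyclase, had levels of -0.83, -2.65 and -2.48 in the Bailing Capsule group, against -0.57, -0.997 and -1.16 in diabetic kidneys. Bailing Capsule replicate 1 lay among the diabetic kidneys, and the difference was -1.08 (SE 0.44; adjusted p = 0.586). Gucy1a1 was called without that array, at -1.66 (limma adjusted p = 0.0208), and with slide as a block it was -1.42 (adjusted p = 0.931).

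The partner subunit gene Gucy1b1 had -0.21 on its brightest probe and 0.15 on a second kept probe, and the mean of its probes gave -0.03. Nos3 and Nos2, the endothelial and inducible nitric oxide synthase genes, had -0.19 and -0.10, and Nos1, the neuronal form, was not well above background on any array. The G protein genes Gnaq and Gna11 had -0.05 and -0.10, and Plcb1 had -0.03. The arrestin genes Arrb1 and Arrb2, which end receptor signalling, had -0.43 and 0.15, Arrb1 with groups that did not overlap. The G protein regulators Rgs2, Rgs4 and Rgs5, which shorten signals of vasoconstrictor receptors, had 0.38, 0.10 and 0.14. None of these genes had an unadjusted p under 0.05.

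Markers of the cells that carry the members were read beside them. Principal cell and medulla genes, of the segment that makes endothelin-1, had a median difference of 0.14 over 9 tested genes with 0 called. Among them Aqp3 had -0.84 and Elf5 had 0.75, each with groups that did not overlap (lower in 7.06% and higher in 4.58% of all features). The summed level of this list ran from 74.2 to 99.3 in Bailing Capsule and from 90.2 to 142.5 in diabetic kidneys. Endothelial genes had a median of 0.03 over 7 tested genes with 0 called, and summed levels of 45.8 to 69.1 in Bailing Capsule and 52.8 to 73.7 in diabetic kidneys. Mesangial and smooth muscle genes, of cells that carry the ETA receptor, had a median of -0.04 over 8 tested genes with 0 called. Connecting and distal tubule genes, of the segment that makes tissue kallikrein, had a median of 0.01 over 5 tested genes with 0 called. Over all features 0.319% were called, so 0 called in lists this short says nothing on cell content. In each of these lists the summed levels of the groups overlapped. The sums add linear signals and so follow the brightest probes of a list. For mesangial and smooth muscle genes, the sum of diabetic replicate 2 lacks Acta2, which had no value there.

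Genes whose levels ran most like a member over the 6 arrays were picked from 10396 named genes by Pearson correlation, as a description only. For Edn1 these included RT1-CE16 (0.986) and Slc17a1 (0.984), and 10 genes exceeded 0.95. For Ednrb they were Mrps5 (0.999), Grk5 (0.998) and Rapgef3 (0.995), with 155 genes over 0.95. For Klk1 they were Blmh (0.988), Mfap3 (0.985) and Zbtb5 (0.983), with 24 genes over 0.95. Arrays share scaling and slide, and 6 points are few for a choice among this many genes.

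**Figure D5:**
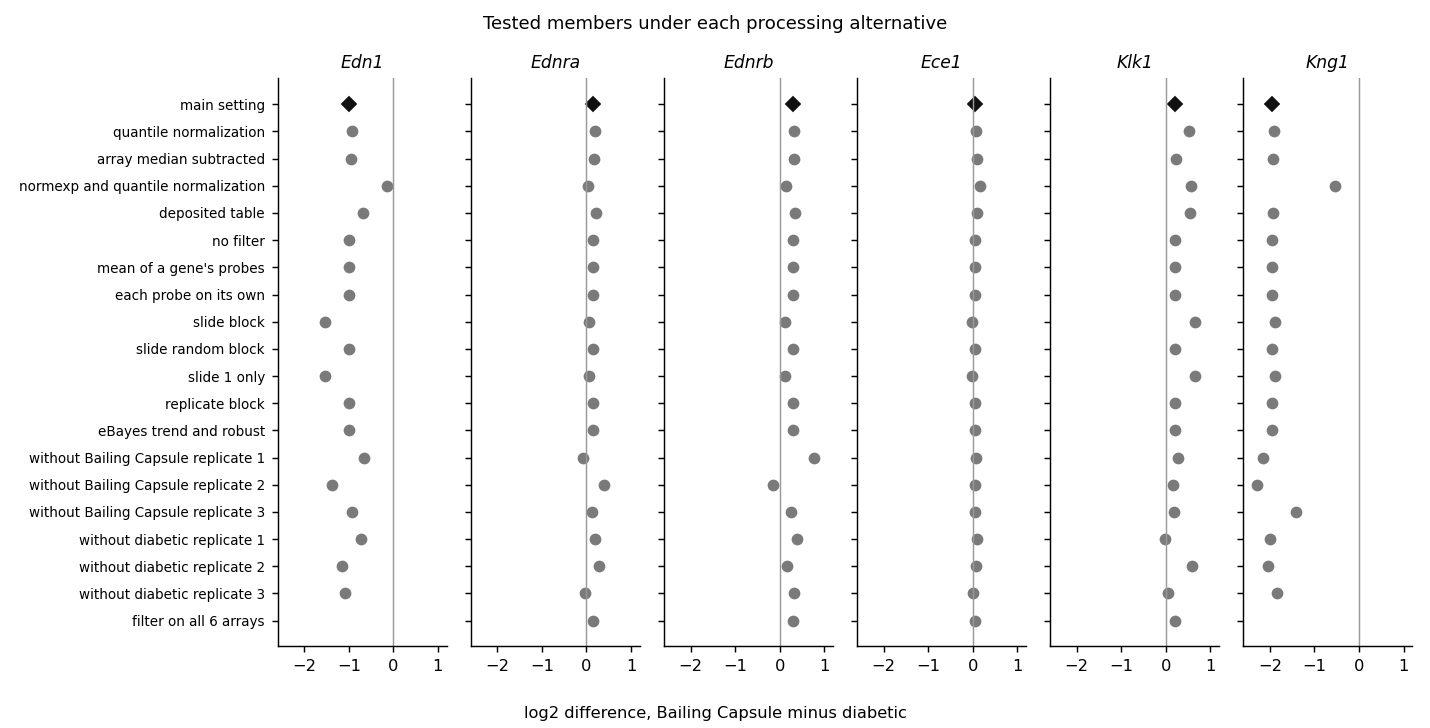
Log2 difference of each tested member, Bailing Capsule minus diabetic (horizontal axis), under every processing alternative (rows); the diamond is the main setting. Kng1 and Edn1 stay below 0 in each row drawn, and Ednra, Ednrb, Ece1 and Klk1 lie on both sides of 0.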

How the data were processed

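Kidney RNA was labelled with Cy3 and read on 1-colour Agilent arrays. Per the file headers, a G2505C scanner and Feature Extraction 11.0.1.1 produced the intensity of each spot, background-subtracted and detrended but not scaled across arrays. A table of log2 values that the authors deposited beside these, with a median of 5.048, served as an alternative; how it was made is not given in the sources used here. No spot was saturated. Per array, 597 to 1091 outlier spots were left out, and 65.04% to 73.66% of probes were well above background (at least 50% of a probe's spots).

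Spots were averaged on the log2 scale and levels were set relative to the 75th percentile of their array. The filter kept a probe when either group had it well above background on all 3 arrays, and a gene was read from its brightest kept probe. Names came from RefSeq accessions of assembly GRCr8, which matched 18005 of 30367 probes; the array annotation names rn4. The test was limma 3.58.1 (lmFit, eBayes, Benjamini-Hochberg over 17892 features, R 4.3.3), and the procedure was tested on simulated data. There it called 4% of true changes of 1 log2 unit and 67% of true changes of 2 log2 units. A gene that was not called may therefore still differ. Alternatives were quantile and median scaling, normexp (offset 50), the deposited table, other filters, probe summaries, variance models, slide or replicate blocks and leaving out each array. Members and lists were chosen with earlier results of these data known. The text names all 9 members, genes of the 2 pathway lists, the 3 most correlated genes of Edn1, Ednrb and Klk1, and markers beside them; a gene that this rule names is not reported here. The number of arrays limits the precision.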

Additional observations from a re-analysis of the deposited data

How the results depend on the processing

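The number of called features was 57, and it was 15 with normexp, 6 with no filter, 9 within slide 1, 6 in a replicate block fit and 17 to 195 in leave-one-out fits. The cause was not tested. Called members numbered 0, and 0 to 1 with 1 array left out, also where the filter was applied to the arrays left. The calls were Kng1 and, in the second case, Edn3, both without Bailing Capsule replicate 1. Each entered only through the group where its signal is higher, so neither call is support for a difference. Called pathway genes numbered 0, and 0 to 1 with 1 array left out (Gucy1a1). Differences changed sign for Ednra without Bailing Capsule replicate 1 (-0.067) and without diabetic replicate 3 (-0.028), for Ednrb without Bailing Capsule replicate 2 (-0.15), for Ece1 with slide as a block and within slide 1 (-0.0102 in both) and for Klk1 without diabetic replicate 1 (-0.022). Leave-one-out values ran from -0.067 to 0.39 for Ednra, from -0.15 to 0.78 for Ednrb and from -0.022 to 0.58 for Klk1. Over the alternatives that gave a value, Edn1 ran from -1.53 to -0.13 and Kng1 from -2.29 to -0.54; neither could be fitted when all 6 arrays had to be well above background. Deviations from the group means correlated at -0.181, -0.14 and 0.0194 between samples of one replicate number, and the replicate block made no member called. With so few arrays these values cannot settle whether replicate numbers mark pairs. Signal over background limits Edn1, Edn3, Kng1 and both kinin receptors.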
